A study of Mus musculus with 12 samples.

Results

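Collagens and the fibroblast matrix program were followed in cultured Myc-CaP cells and in Myc-CaP tumors, with and without YJ1206. The 57 genes described here are the 44 whose symbol names a collagen chain (Col, a type number, a, a chain number) and 13 others of the matrix program, namely Fn1, Sparc, Dcn, Lum, Fbn1, Postn, Pdgfra, Pdgfrb, Thy1, Fap, Lox, Loxl1 and Loxl2. The rule uses gene names only. All 57 are among the 40077 genes listed for the cells and the 34508 listed for the tumors.

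All 4 groups share one origin, the line Myc-CaP, which was established from prostate cancer in a mouse carrying a human MYC transgene expressed in that organ. YJ1206, a proteolysis-targeting chimera (PROTAC), recruits a ubiquitin ligase to the transcription kinases CDK12 and CDK13, which are then degraded. Cells received either DMSO or 1 μM of YJ1206, and 24 hours later RNA was taken, with 3 libraries per group. Tumors grew from Myc-CaP cells injected under the skin of male FVB mice, which keep their immune system, and were treated by mouth with vehicle (PEG400, Cremophor EL and PBS) or with YJ1206, dosed at 100 mg/kg on 3 days of each week. Each tumor group also has 3 libraries. The age of the mice is not given in the sources used here. The labels name the RNA of the cells polyA RNA and that of the tumors total RNA, while the protocol describes digestion of ribosomal RNA for both. The study's methods call its replicates independent, the labels do not say which animal each tumor library came from, and p-values measure the spread between the 3 libraries of a group.

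Collagens are trimers of chains wound into a triple helix, in which glycine recurs at a fixed interval. Fibrillar collagens (types I, II, III, V, XI, XXIV and XXVII) form the fibers of connective tissue, fibril-associated collagens decorate them, collagen IV forms the network of basement membranes, and collagen VI forms beaded microfibrils. In carcinomas most fibrillar collagen is made by fibroblasts of the host, whereas basement membrane chains come from epithelial, endothelial and other cells. Fibronectin (Fn1), SPARC, fibrillin (Fbn1) and periostin (Postn) are matrix glycoproteins, decorin (Dcn) and lumican (Lum) are small proteoglycans that bind collagen fibrils, and the lysyl oxidases (Lox, Loxl1, Loxl2) crosslink collagen and elastin. Pdgfra, Pdgfrb, Thy1 and Fap encode surface proteins used as markers of fibroblasts or pericytes.

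The libraries held 13936984 to 18520071 counts in the cells and 15391684 to 26928447 in the tumors. Levels are given as TPM (transcript abundance scaled for gene length and library size), and comparisons between treatments as normalised CPM (counts scaled to library size with the trimmed mean of M-values, TMM). The libraries of DMSO cells and of YJ1206 cells carry numbers that belong to separate runs of numbering, so in culture the treatment and any batch of libraries cannot be told apart. In the cells the scaling matters, since over all genes the median log2 fold change lay at -0.017 with TMM but at -0.20 when libraries were scaled by total counts. The share of significant genes that were higher was 49.7% with TMM and 36.1% with total counts. As a check of the cell type, Epcam and Cldn7 were listed at 0 in every DMSO library and Cdh1 reached at most 0.028 TPM, although Krt19 (median 146 TPM) and Cldn3 (median 124 TPM) were present. In both tumor groups library 3 lay between libraries 1 and 2. Among tested genes of the 57 whose libraries 1 and 2 differed by at least 0.5 on the log2 scale, this held for 23 of 23 in vehicle tumors and for 22 of 23 in YJ1206 tumors, against 88.4% and 82.2% of all such genes. Over all genes tested, library 3 lay between for 59.7% in vehicle and 50.6% in YJ1206 tumors. Whether the libraries 3 are separate tumors was not tested. If they are not, each tumor group has 2 samples, and the tumor values are those of the fit with libraries 1 and 2 only, which is given beside the counts.

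Levels in DMSO cells sorted the genes into those expressed in culture, those at or near 0 counts, and those between. At least 1 TPM in all 3 DMSO libraries was found for 8 genes, namely Fn1, Sparc, Loxl2, Col5a1, Col4a5, Col12a1, Pdgfra and Col11a2. Another 34 had at most 3 counts in every DMSO library, 20 of them listed at 0 throughout, and the other 15 lay between. Transcripts used to mark fibroblasts in tissue were mostly missing from the line: Col3a1, Dcn, Pdgfrb, Thy1, Fap, Lox and Loxl1 were listed at 0 in all 3 DMSO libraries, and Col1a2 and Lum had at most 1 count. Of 18 further fibroblast markers 6 were listed at 0 throughout, and the sum of 284 to 305 TPM was mostly S100a4 (217 to 234 TPM). In YJ1206 cells these markers summed to 621 to 682 TPM. Of 5 tested in cells 3 were higher and 0 lower, beside 37.8% higher of all genes. S100a4 was among the 3, with a log2 fold change of 1.51 (edgeR adjusted p = 8.68e-19).

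Fibronectin was the most abundant of the 57 transcripts in every group. Fn1 (ENSMUSG00000026193.15) was at 525, 540.3 and 539.7 TPM in DMSO cells and at 1064, 935 and 1013 TPM in vehicle tumors. Sparc (ENSMUSG00000018593.13) was at 149, 160.0 and 153 TPM in DMSO cells and 344, 246 and 307 TPM in vehicle tumors. Loxl2 (ENSMUSG00000034205.16), a lysyl oxidase that crosslinks collagen IV, was at 72.96, 74.2 and 73.9 TPM and 64.6, 48.9 and 54.8 TPM. Loxl2 alone had a lower mean in vehicle tumors than in DMSO cells (0.761 times), Col9a1 was listed at 0 in both, and the other 55 genes had a higher mean in vehicle tumors. For the 8 genes expressed in DMSO cells, mean TPM in vehicle tumors was 0.761 to 7.70 times that in DMSO cells.

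Fibrillar collagens I and III were at or near the floor in culture and abundant in tumors. Col1a1 (ENSMUSG00000001506.10) was at 239.9, 94.1 and 179.6 TPM in vehicle tumors but at 0.0589, 0.147 and 0.0727 TPM in DMSO cells. Col1a2 (ENSMUSG00000029661.16), the partner chain of collagen I, was at 175, 63.6 and 134 TPM in vehicle tumors, and its DMSO libraries held 1, 0 and 0 counts. Col3a1 (ENSMUSG00000026043.18) reached 246, 42.5 and 168 TPM in vehicle tumors against 0 counts in culture. Of the 34 genes at the floor in DMSO cells, 10 had a mean of at least 10 TPM in vehicle tumors. Cells and tumors were counted in separate tables, were grown in different settings and include host tissue in tumors only, so these levels stand side by side with no test. Whether a transcript at the floor in culture came from host cells or from cancer cells growing in the mouse cannot be told apart here, nor can fewer cells of a type and less RNA per cell. Together the 57 genes summed to 804, 833 and 825 TPM in DMSO cells and to 2813, 1986 and 2484 TPM in vehicle tumors. The genes outside the 8 expressed in culture made up 5.85, 7.24 and 6.06 TPM of that sum in DMSO cells and 1190, 614 and 967 TPM in vehicle tumors. In the treated groups the 57 genes summed to 460, 473 and 451 TPM in cells and to 1709, 2023 and 1936 TPM in tumors.

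**Figure D1:**
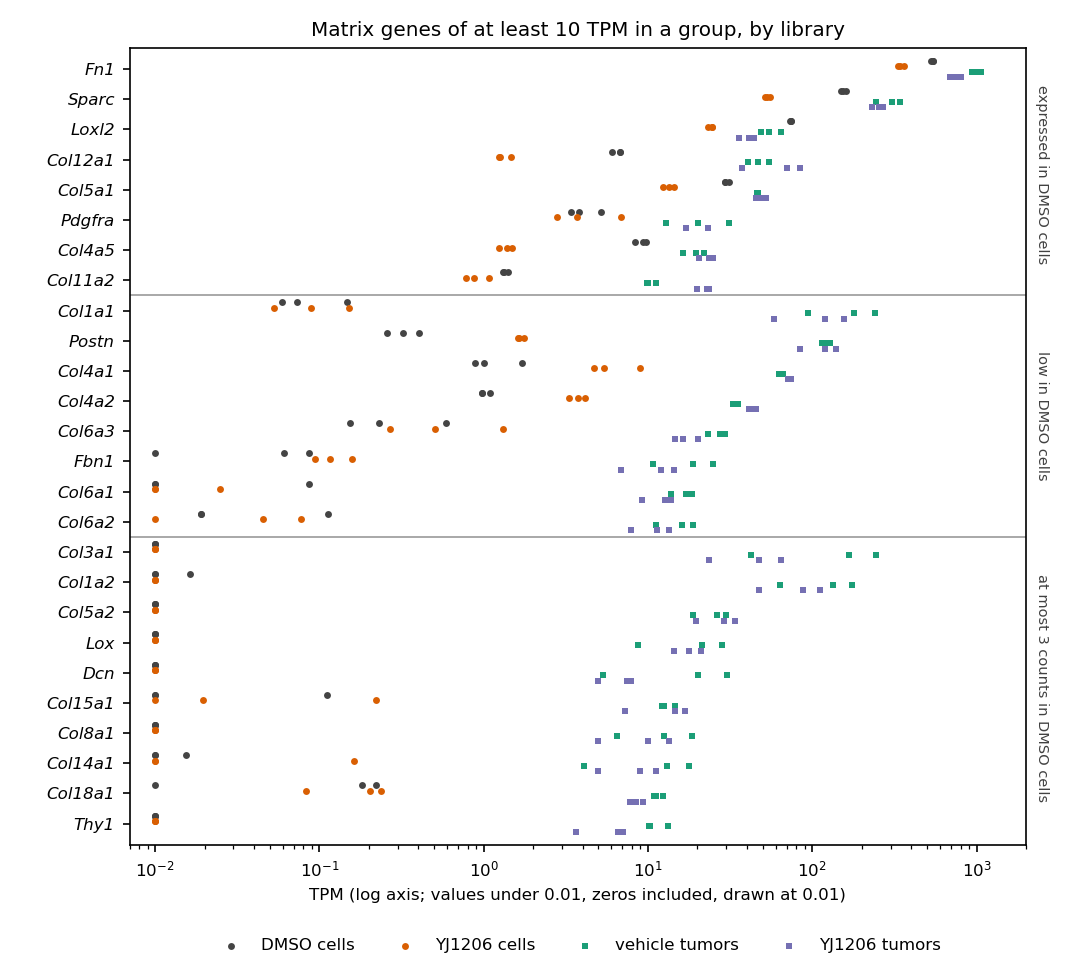
TPM of each library (log axis) for the 26 genes with a mean of at least 10 TPM in a group, with 1 symbol per library and color for the group. Genes of the top block are expressed in DMSO cells, and in the bottom block, from Col3a1 to Thy1, the cell libraries lie far below the tumor libraries.

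In cultured cells chains of the basement membrane changed in opposite directions with YJ1206: Col4a1 and Col4a2 were higher and Col4a5 was lower. Of the 57 genes, 17 had enough counts to be tested, and 12 of these passed, 5 higher and 7 lower. Among the 5 higher, Col10a1, Fbn1 and Postn had enough counts only in YJ1206 cells, so that higher was the only direction open to them. Over all 11826 genes tested 76.1% passed, 37.8% higher and 38.3% lower, so the share among these genes (70.6%) was near that of the whole table. In 11 of the 17 the groups did not overlap, against 77.5% of all genes. The median log2 fold change of the 17 was -0.14, beside -0.017 over all genes.

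Col4a1 (ENSMUSG00000031502.11, chromosome 8, 11198423 to 11312826, minus strand, GRCm38) and Col4a2 (ENSMUSG00000031503.13, chromosome 8, 11312805 to 11449287, plus strand) encode the chains of the common collagen IV trimer, in which 2 alpha-1 chains pair with 1 alpha-2 chain. The genes lie head to head, with RefSeq starts 21 bases apart, and their exons overlap by 22 bases on opposite strands. Whether the counting used strand is not given in the sources used here. The windows from 250 bases before to 50 bases after each start (RefSeq, GRCm38.p6) are shown for this pair, which rose together, and for Col4a5, which fell. They are read 5′ to 3′ on the strand of the gene, and capitals mark matches on either strand to the motifs described after the sequences. The windows are chr8:11312777-11313076 for Col4a1, chr8:11312555-11312854 for Col4a2 and chrX:141475169-141475468 for Col4a5, and the first pair share 78 bases.
Col4a1: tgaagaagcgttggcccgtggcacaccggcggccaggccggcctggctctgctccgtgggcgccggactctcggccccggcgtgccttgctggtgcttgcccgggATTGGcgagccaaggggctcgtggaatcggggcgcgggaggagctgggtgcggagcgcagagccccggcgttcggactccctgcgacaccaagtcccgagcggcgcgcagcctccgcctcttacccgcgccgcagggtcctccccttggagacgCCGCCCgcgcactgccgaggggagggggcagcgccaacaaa
Col4a2: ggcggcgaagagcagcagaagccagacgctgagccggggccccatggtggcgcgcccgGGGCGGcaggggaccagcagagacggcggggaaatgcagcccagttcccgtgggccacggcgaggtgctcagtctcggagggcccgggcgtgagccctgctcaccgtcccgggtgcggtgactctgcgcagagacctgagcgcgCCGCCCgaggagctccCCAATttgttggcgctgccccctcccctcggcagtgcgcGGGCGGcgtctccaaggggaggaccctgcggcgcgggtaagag
Col4a5: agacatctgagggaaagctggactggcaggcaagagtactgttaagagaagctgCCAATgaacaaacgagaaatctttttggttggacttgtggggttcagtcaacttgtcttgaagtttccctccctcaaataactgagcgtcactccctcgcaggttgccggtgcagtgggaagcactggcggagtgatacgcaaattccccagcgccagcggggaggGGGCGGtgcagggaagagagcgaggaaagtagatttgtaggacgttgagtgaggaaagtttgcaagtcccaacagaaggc
Each of the 3 windows holds CCAAT, the box bound by NF-Y, which on either strand 37.4% of all 32851 RefSeq mouse promoter windows of this length also hold. Each also holds GGGCGG, the GC box bound by SP1, present in 35.7% of all windows and in 55.8% of the 43 windows found for 39 of the 57 genes. The only GGGCGG match of Col4a1 and the last one of Col4a2 are the same site, within the bases that the windows share. The other motifs searched were not found in these 3 windows. They are TATAAA, the TATA box, in 6 of the 43 windows and 13.6% of all, TGANTCA, the site of AP-1, in 2.33% and 7.81%, and CAGACA, a SMAD box, in 23.3% and 21.0%. None of the motifs overlapped another in these 3 windows. Such matches describe the letters only.

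Col4a1 was at 3.44, 4.39 and 3.93 normalised CPM in DMSO cells and at 24.6, 26.1 and 22.9 in YJ1206 cells (log2 fold change 2.65, standard error 0.11, edgeR adjusted p = 9.24e-18). Col4a2 went from 3.69, 3.72 and 4.13 to 19.3, 17.7 and 15.8 (log2 fold change 2.19, standard error 0.12, edgeR adjusted p = 3.61e-15). For both genes every treated library was more than 3 times the highest DMSO library. Col4a5 (ENSMUSG00000031274.16), on the X chromosome and best known from inherited nephritis, went the other way. It was at 31.8, 29.02 and 33.7 normalised CPM with DMSO and at 5.73, 6.57 and 5.84 with YJ1206 (log2 fold change -2.38, standard error 0.099, edgeR adjusted p = 6.04e-18). Its head-to-head neighbor Col4a6, whose start lies 1343 bases away, had 2, 1 and 0 counts with DMSO and 0 in every YJ1206 library. Col4a3 held at most 4 counts and Col4a4 at most 1 in any cell library, so neither was tested.

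Of the 8 genes expressed in DMSO cells 6 were lower with YJ1206, Col4a5 among them, and Pdgfra and Col11a2 did not pass. Over all genes tested 38.3% were lower, and the share among all genes expressed in DMSO cells was not computed. The 8 were chosen by their DMSO level, which also enters the fold change. Of the 15 genes between that level and the floor 8 were tested, with 4 higher and 1 lower, beside 37.8% higher of all genes. This class too was set by the DMSO level. Among the 4, Postn and Fbn1 had enough counts only with YJ1206, so that no direction but higher was open to them. Sparc, which binds collagen and modulates its assembly, went from 180.5, 194 and 185 to 81.5, 76.9 and 79.7 normalised CPM (log2 fold change -1.23, standard error 0.04, edgeR adjusted p = 3.09e-20). Loxl2 went from 204, 208 and 206 to 73.5, 76 and 80.1 (log2 fold change -1.43, standard error 0.039, edgeR adjusted p = 5.69e-22). In neither gene did the groups come near each other. Col12a1 (ENSMUSG00000032332.17), a long fibril-associated collagen, went from 46.1, 46.6 and 41.1 to 10.4, 11.9 and 10.2 (log2 fold change -2.04, standard error 0.082, edgeR adjusted p = 2.65e-18). Col5a1 (ENSMUSG00000026837.16), whose chain nucleates collagen I fibrils, went from 89, 94.6 and 94.7 to 50.7, 53.96 and 51.8 (log2 fold change -0.83, standard error 0.046, edgeR adjusted p = 3.05e-15). The smallest of these decreases was that of the most abundant gene: Fn1 went from 2482, 2583 and 2543 to 1976, 2080.2 and 1954 normalised CPM (log2 fold change -0.34, standard error 0.023, edgeR adjusted p = 2.08e-13).

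Pdgfra (ENSMUSG00000029231.15) was at 9.23, 10.02 and 8.82 normalised CPM with DMSO and 8.09, 8.23 and 9.23 with YJ1206 (log2 fold change -0.14, standard error 0.12, edgeR adjusted p = 0.291), and its groups overlapped. Its estimate was -0.32 with total-count scaling (edgeR adjusted p = 0.014) and 0.027 with limma on log2(TPM + 1), so its direction depended on the scaling. Col11a2 (ENSMUSG00000024330.17), a minor fibrillar collagen best known from cartilage, was at 4.41, 4.54 and 4.74 with DMSO and 4.58, 3.55 and 3.23 with YJ1206 (log2 fold change -0.26, standard error 0.18, edgeR adjusted p = 0.183), and passed with total-count scaling (log2 fold change -0.45, edgeR adjusted p = 0.0251).

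At lower levels 4 further genes passed in the cells. Postn (ENSMUSG00000027750.16), a matricellular protein of remodeling stroma, went from 0.462, 0.568 and 0.705 to 3.79, 3.40 and 3.61 normalised CPM (log2 fold change 2.62, standard error 0.29, edgeR adjusted p = 6.33e-09). Col10a1 (ENSMUSG00000039462.4, chromosome 10, 34389981 to 34397085, plus strand), the network collagen of hypertrophic cartilage, was nearly absent with DMSO (1, 0 and 0 counts) and present after treatment (50, 43 and 52 counts). Setting the DMSO group at the floor of 3 counts per library, it was at least 23.5-fold higher. Col10a1 lies inside Nt5dc1 on the opposite strand, with exons that overlap by 18 bases, and Nt5dc1 itself did not pass (log2 fold change 0.094, standard error 0.089, edgeR adjusted p = 0.342).

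Fbn1 (ENSMUSG00000027204.13) and Col16a1 passed on few counts. Fbn1 was at 0.0513, 0.362 and 0.504 normalised CPM with DMSO and 1.15, 0.679 and 0.846 with YJ1206 (log2 fold change 1.52, standard error 0.52, edgeR adjusted p = 0.0104), and 20.1% of its exon bases overlap Gm9913 on the opposite strand. The call was lost without DMSO library 1 (log2 fold change 1.03, edgeR adjusted p = 0.0755) and without YJ1206 library 1 (log2 fold change 1.30, edgeR adjusted p = 0.0682). Col16a1 was at 2.26, 2.995 and 2.77 with DMSO and 1.22, 2.49 and 1.46 with YJ1206 (log2 fold change -0.64, standard error 0.28, edgeR adjusted p = 0.0389), with overlapping groups. It was no longer called without DMSO library 2 or 3 or without YJ1206 library 1 or 3 (edgeR adjusted p from 0.0786 to 0.198). Col6a3, a collagen VI chain, was at 1.28, 1.14 and 0.857 normalised CPM with DMSO and 1.07, 1.51 and 1.46 with YJ1206 and did not pass (log2 fold change 0.30, standard error 0.33, edgeR adjusted p = 0.416). Col7a1 did not pass (log2 fold change -0.078, standard error 0.16, edgeR adjusted p = 0.67), nor did Col11a1 (log2 fold change 0.17, standard error 0.39, edgeR adjusted p = 0.713), whose sign changed with total-count scaling. The remaining 40 genes had too few counts in culture.

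In tumors Col4a1, Col4a2 and Col4a5 of collagen IV and Col11a1 and Col11a2 of collagen XI were higher with YJ1206. Lower were Col6a3, Col5a3, Col7a1, Col18a1, Fn1, Loxl2 and Thy1. The calls of Col4a5, Col11a1, Col7a1 and Loxl2 were lost in most fits that leave out 1 library. Of the 45 genes tested 14 passed, 6 higher and 8 lower, that is 31.1% beside 26.8% of all 15558 genes (11.9% higher and 14.9% lower). Among the 8 lower, Col23a1 had enough counts only in vehicle tumors. The groups did not overlap in 14 of the 45, against 44.6% of all genes. The median log2 fold change of the 45 was -0.25, beside 0.0091 over all genes.

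Several of these calls rest on individual libraries. With libraries 1 and 2 only, none of the 45 passed the edgeR test, 10 had an unadjusted p under 0.05, and 1 gene of the whole table passed; limma and DESeq2 were not run on those 4 libraries. All 14 kept their direction in that fit, with edgeR adjusted p from 0.134 to 0.366. The log2 fold change there was 1.11 for Col11a2, 0.31 for Col4a1, 0.36 for Col4a2, -0.92 for Col6a3, -0.66 for Col5a3, -0.45 for Col18a1 and -0.34 for Fn1. Without vehicle library 2, 4 were higher and 18 lower. Without vehicle library 3, 3 were higher and 5 lower, and without YJ1206 library 3, 3 were higher and 4 lower. All 6 fits that leave out 1 library called Col11a2, Col4a1, Col4a2, Col5a3, Col6a3, Col18a1 and Col23a1. For Col23a1, with enough counts only in vehicle tumors, no direction other than lower was open. Skeletal muscle markers differed with the groups as well, summing to 1014, 107 and 643 TPM in vehicle tumors and to 66.7, 76.4 and 80.4 TPM in YJ1206 tumors, with 10 of 10 tested markers lower. The 18 fibroblast markers outside the 57 genes summed to 520, 364 and 458 TPM in vehicle and 388, 437 and 435 TPM in YJ1206 tumors, with 1 of 17 tested higher and 3 lower. The part of either in the results was not tested.

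Collagens I and III, the main fibers of stroma, spread widely between tumors of a group, over 2.45-fold in vehicle and 2.73-fold in YJ1206 tumors for Col1a1. Col1a1 was at 863, 352 and 650.5 normalised CPM in vehicle tumors and at 223, 609 and 461 in YJ1206 tumors (log2 fold change -0.53, standard error 0.41, edgeR adjusted p = 0.383). Col1a2 followed it, at 564, 214 and 435 in vehicle and 162, 387 and 301 in YJ1206 tumors (log2 fold change -0.51, standard error 0.40, edgeR adjusted p = 0.384). In both genes vehicle library 2 and YJ1206 library 1 were the lowest of their groups, and the groups overlapped. The ratio of Col1a1 to Col1a2 in TPM stayed between 1.24 and 1.48 in all 6 tumors, so the chains moved together from tumor to tumor.

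Col3a1 had the widest spread of the abundant collagens, at 777, 140.0 and 510.0 normalised CPM in vehicle and 76.2, 220.1 and 170.5 in YJ1206 tumors (log2 fold change -1.61, standard error 0.61, edgeR adjusted p = 0.0928). Its groups overlapped only through vehicle library 2. Without that library the log2 fold change was -2.05 (edgeR adjusted p = 0.00436). This was the only 1 of the 6 fits without a library that called Col3a1, and these estimates reached -1.06. In TPM, Col3a1 was 1.03, 0.452 and 0.936 times Col1a1 in vehicle tumors and 0.398, 0.414 and 0.395 times in YJ1206 tumors, so that vehicle library 2 lay near the treated tumors in this ratio too.

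Chains of collagens V and XI were distributed differently. Col5a1, which the cancer cells express, was at 187, 179 and 179 normalised CPM in vehicle and 180.3, 210.2 and 199 in YJ1206 tumors (log2 fold change 0.12, standard error 0.068, edgeR adjusted p = 0.251). Its partner Col5a2 (ENSMUSG00000026042.16), at the floor in culture, was at 121, 79.1 and 107 in vehicle and 83.8, 149 and 125 in YJ1206 tumors (log2 fold change 0.22, standard error 0.23, edgeR adjusted p = 0.52). Neither passed, and Col5a2 spread over 1.53-fold in vehicle and 1.77-fold in YJ1206 tumors where Col5a1 spread over 1.04-fold and 1.17-fold. Col5a3 was lower in YJ1206 tumors, at 21.8, 16.8 and 20.03 against 12.9, 11.5 and 11.5 (log2 fold change -0.70, standard error 0.12, edgeR adjusted p = 0.00698). Col11a2 was higher, at 33.9, 39.01 and 34.4 against 84.5, 73.2 and 82.4 normalised CPM (log2 fold change 1.16, standard error 0.087, edgeR adjusted p = 0.000705). Every YJ1206 library of Col11a2 was well above every vehicle library.

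Col11a1, the partner chain of Col11a2, was at 20.3, 10.8 and 15.8 normalised CPM in vehicle and 20.4, 44.9 and 33.6 in YJ1206 tumors (log2 fold change 1.08, standard error 0.32, edgeR adjusted p = 0.0429). The highest vehicle library and the lowest YJ1206 library nearly met. The call was lost without vehicle library 2 or 3 or without YJ1206 library 2 or 3, with edgeR adjusted p from 0.0547 to 0.136.

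Among fibril-associated collagens, 1 of 6 tested passed. Col20a1 was at 6.49, 6.41 and 6.14 normalised CPM in vehicle and 9.78, 8.14 and 10.2 in YJ1206 tumors (log2 fold change 0.56, standard error 0.13, edgeR adjusted p = 0.0178), a call lost without vehicle library 3 or YJ1206 library 1 or 3 (edgeR adjusted p from 0.0565 to 0.0845). Col12a1 was at 265, 378 and 311 in vehicle and 265, 586 and 475 in YJ1206 tumors (log2 fold change 0.48, standard error 0.27, edgeR adjusted p = 0.239), and YJ1206 library 1 was level with the lowest vehicle library. Without that YJ1206 library it passed, with a log2 fold change of 0.74 (edgeR adjusted p = 0.0297). No other fit without 1 library called Col12a1, and these estimates reached down to 0.22. Col14a1 (ENSMUSG00000022371.16) was at 57.5, 13.95 and 42.98 in vehicle and 17.1, 35.4 and 32.4 in YJ1206 tumors (log2 fold change -0.42, standard error 0.49, edgeR adjusted p = 0.567), spread over 4.12-fold within vehicle tumors. Its estimate was -0.83 without vehicle library 2 (edgeR adjusted p = 0.0465) and 0.019 without vehicle library 1.

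Of the collagen IV genes 3 of 4 tested were higher with YJ1206, beside 11.9% higher of all genes tested. For Col4a1 the tumors of either group lay within 1.03-fold of each other. The spread reached 1.11-fold for Col4a2 and 1.58-fold for Col4a3 in YJ1206 tumors, and 1.29-fold for Col4a5 in vehicle tumors. Col4a1 was at 232, 226 and 227 normalised CPM in vehicle tumors and 284, 284 and 291 in YJ1206 tumors (log2 fold change 0.33, standard error 0.048, edgeR adjusted p = 0.00373). Col4a2 was at 134, 144 and 131 in vehicle and 171, 185 and 191 in YJ1206 tumors (log2 fold change 0.42, standard error 0.065, edgeR adjusted p = 0.00444). The pair with the shared promoter region thus rose in culture and in tumors, by less in tumors, with no overlap between groups in either. On the log2(TPM + 1) scale Col4a1 no longer passed in tumors (limma log2 fold change 0.17, adjusted p = 0.0672). Col4a5 was at 81.5, 63.2 and 74.1 in vehicle and 100.5, 83.5 and 96.2 in YJ1206 tumors (log2 fold change 0.36, standard error 0.11, edgeR adjusted p = 0.0496). This call was kept in 1 of the 6 fits that leave out a library, the one without vehicle library 1. Col4a3, listed at 5.94, 5.41 and 5.19 TPM in vehicle tumors, was at 1.85, 1.58 and 1.36 normalised CPM in vehicle and 1.86, 2.19 and 1.39 in YJ1206 tumors (log2 fold change 0.18, standard error 0.25, edgeR adjusted p = 0.632). Col4a4 and Col4a6 stayed under 1 normalised CPM in every tumor and were not tested.

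Collagen VI was lower in 1 of 5 tested chains. Col6a3 (ENSMUSG00000048126.16), the longest chain and the source of the endotrophin fragment, was at 104, 92.6 and 108 normalised CPM in vehicle and 49.04, 55.04 and 56.97 in YJ1206 tumors (log2 fold change -0.92, standard error 0.086, edgeR adjusted p = 0.00113). Its partners Col6a1 and Col6a2 had smaller estimates and overlapping groups. Col6a1 was at 45.6, 35.4 and 41.9 in vehicle and 23.6, 36.7 and 33.05 in YJ1206 tumors (log2 fold change -0.39, standard error 0.17, edgeR adjusted p = 0.13), and Col6a2 at 44.9, 27.9 and 39.2 in vehicle and 19.8, 34.99 and 29.6 in YJ1206 tumors (log2 fold change -0.40, standard error 0.24, edgeR adjusted p = 0.253).

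Collagen VII, which anchors the epidermal basement membrane, collagen XVIII, the precursor of endostatin, and collagen XXIII were lower too. Col7a1 was at 56.5, 35.4 and 50.7 normalised CPM in vehicle and 32.8, 34.3 and 31.1 in YJ1206 tumors (log2 fold change -0.53, standard error 0.16, edgeR adjusted p = 0.0487), a call kept only in the fit without vehicle library 2 of the 6 that leave out a library. Col18a1 (ENSMUSG00000001435.15) was at 27.7, 26.6 and 27.5 in vehicle and 18.4, 21.3 and 19.8 in YJ1206 tumors (log2 fold change -0.46, standard error 0.085, edgeR adjusted p = 0.00851). The related Col15a1 was at 35.8, 38.3 and 34.6 in vehicle and 23.6, 51.5 and 40.7 in YJ1206 tumors (log2 fold change 0.094, standard error 0.25, edgeR adjusted p = 0.814), and turned to -0.094 on the log2(TPM + 1) scale. Col23a1, a transmembrane collagen, had 19, 18 and 15 counts in vehicle and 1, 3 and 0 in YJ1206 tumors, at least 5.52-fold lower with the YJ1206 group at the floor of 3 counts per library. It had enough counts for the test only in vehicle tumors, so that lower was the only direction open to it. Col8a1 (ENSMUSG00000068196.5) was at 56.7, 20.7 and 39.1 in vehicle and 16, 44.5 and 32.7 in YJ1206 tumors (log2 fold change -0.32, standard error 0.44, edgeR adjusted p = 0.635).

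**Figure D2:**
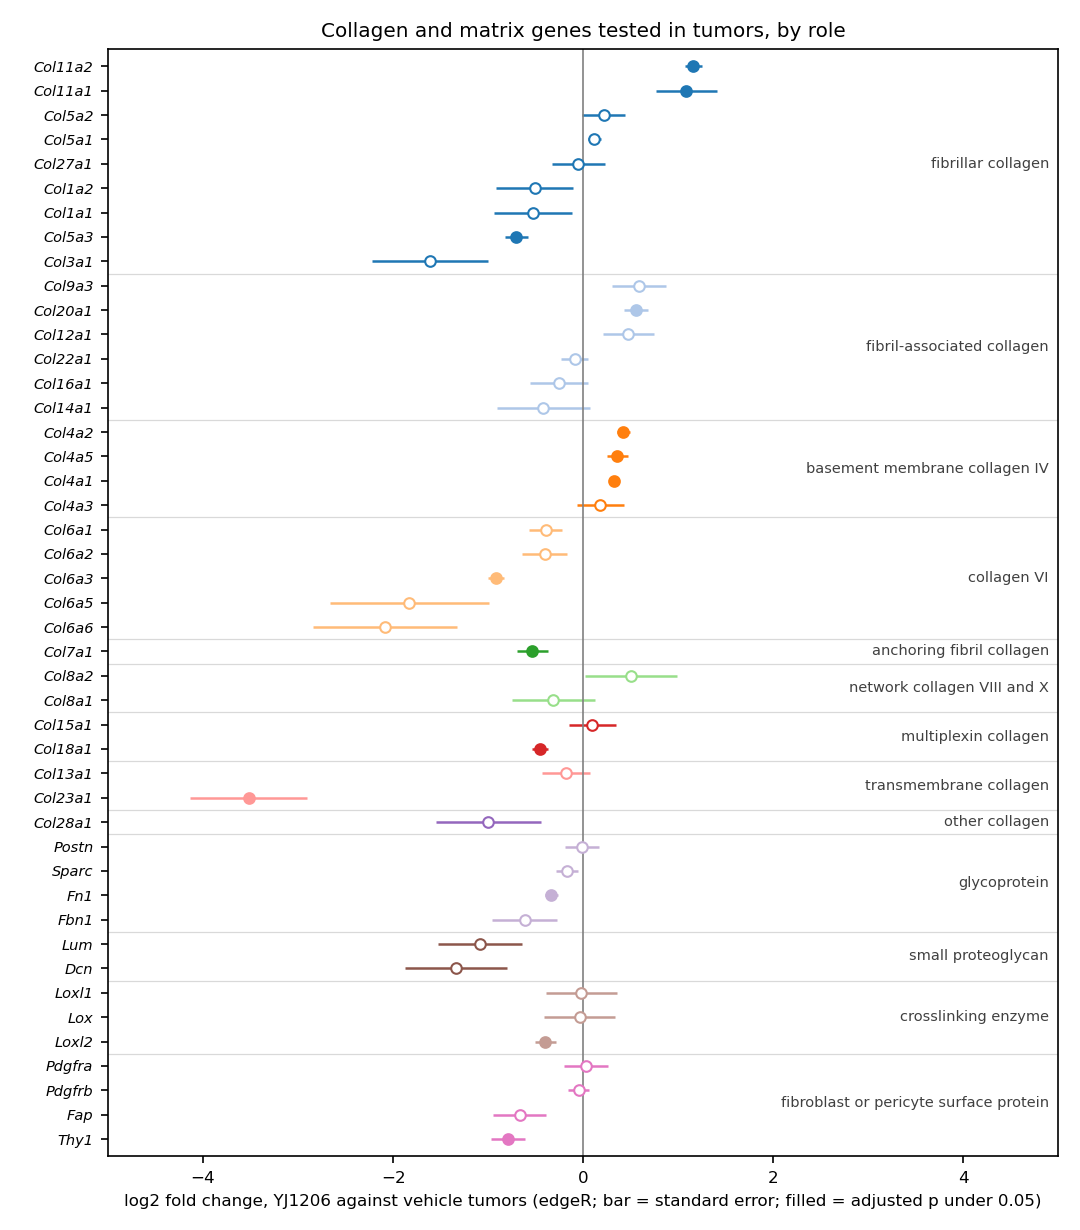
The log2 fold change of each of the 45 genes tested, YJ1206 against vehicle tumors, grouped by role, with bars for the standard error and filled symbols for an adjusted p under 0.05 (edgeR). Collagen IV chains lie to the right of 0 and collagen VI chains to the left, and the longest bars belong to collagens of low level and to Col3a1 and Dcn.

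Of the glycoproteins only Fn1 passed in tumors. It was at 5005, 4581 and 4801 normalised CPM in vehicle and 4052, 3535 and 3799.6 in YJ1206 tumors (log2 fold change -0.34, standard error 0.068, edgeR adjusted p = 0.011), nearly the estimate of the cells. Without vehicle library 3 or YJ1206 library 3 the adjusted p was 0.0540 and 0.0570 (edgeR). Sparc was at 433, 321 and 389 in vehicle and 306, 369 and 341 in YJ1206 tumors (log2 fold change -0.17, standard error 0.12, edgeR adjusted p = 0.33). Fbn1, the backbone of elastic microfibrils, was at 151, 68.1 and 114 in vehicle and 44.2, 95.1 and 78 in YJ1206 tumors (log2 fold change -0.61, standard error 0.34, edgeR adjusted p = 0.228). Without vehicle library 2 both passed, at -0.28 for Sparc (edgeR adjusted p = 0.0372) and -0.87 for Fbn1 (edgeR adjusted p = 0.0385). No other fit without 1 library called either, and these estimates reached -0.068 for Sparc and -0.33 for Fbn1. Postn was at 208, 241 and 214 in vehicle and 157, 274 and 226 in YJ1206 tumors (log2 fold change -0.013, standard error 0.18, edgeR adjusted p = 0.968).

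The small proteoglycans varied between vehicle tumors as Col3a1 did. Dcn (ENSMUSG00000019929.16) was at 28.5, 5.40 and 19.8 normalised CPM in vehicle and 5.08, 7.83 and 8.15 in YJ1206 tumors (log2 fold change -1.34, standard error 0.54, edgeR adjusted p = 0.107), and Lum (ENSMUSG00000036446.5) at 9.73, 2.81 and 6.14 in vehicle and 2.02, 3.54 and 3.14 in YJ1206 tumors (log2 fold change -1.09, standard error 0.44, edgeR adjusted p = 0.111). In both genes vehicle libraries 1 and 3 were above the YJ1206 tumors and vehicle library 2 lay within their range. Without vehicle library 2 the log2 fold change was -1.78 for Dcn (edgeR adjusted p = 0.000882) and -1.45 for Lum (edgeR adjusted p = 0.00498). For each gene this was the only 1 of the 6 fits without a library that called it. At the other end these estimates reached -0.81 for Dcn and -0.58 for Lum. Lum also passed with all libraries in DESeq2 (adjusted p = 0.0411).

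Of the lysyl oxidases, Loxl2 was lower in tumors, at 180.4, 148 and 163 against 107, 140.2 and 126 normalised CPM (log2 fold change -0.40, standard error 0.11, edgeR adjusted p = 0.0378). The call was lost without library 1 or 3 of either group, with edgeR adjusted p from 0.0839 to 0.117. Lox (ENSMUSG00000024529.14) was at 79.99, 25.7 and 61.3 in vehicle and 42.98, 64.8 and 54.2 in YJ1206 tumors (log2 fold change -0.038, standard error 0.37, edgeR adjusted p = 0.953), and Loxl1 (ENSMUSG00000032334.10) at 15.3, 6.001 and 11.8 in vehicle and 6.66, 13.4 and 12.4 in YJ1206 tumors (log2 fold change -0.022, standard error 0.37, edgeR adjusted p = 0.975). Both were lowest in vehicle library 2, overlapped between groups, and had estimates near 0 whose sign changed when vehicle library 1 was left out (0.33 for Lox and 0.31 for Loxl1), as it did without vehicle library 3 or YJ1206 library 1. For Lox the sign also changed on the log2(TPM + 1) scale.

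Among surface proteins, Thy1 (ENSMUSG00000032011.5), which is carried by fibroblasts and by T cells, was lower, at 8.34, 8.74 and 7.37 against 3.60, 5.33 and 5.21 normalised CPM (log2 fold change -0.79, standard error 0.18, edgeR adjusted p = 0.0165). Without YJ1206 library 3 its adjusted p was 0.0515 (edgeR). Fap (ENSMUSG00000000392.17) was at 2.52, 1.39 and 2.26 in vehicle and 1.15, 1.30 and 1.39 in YJ1206 tumors (log2 fold change -0.67, standard error 0.28, edgeR adjusted p = 0.121), and passed without vehicle library 2 (log2 fold change -0.90, edgeR adjusted p = 0.0216). No other fit without 1 library called Fap, and these estimates reached -0.48. Pdgfrb (ENSMUSG00000024620.11), a pericyte receptor, was at 18.8, 19.6 and 18.9 in vehicle and 20.8, 16.1 and 18.7 in YJ1206 tumors (log2 fold change -0.047, standard error 0.11, edgeR adjusted p = 0.794), with all 6 libraries within a narrow range. Pdgfra was at 58.8, 28.8 and 50.02 in vehicle and 46.8, 46.3 and 47.4 in YJ1206 tumors (log2 fold change 0.033, standard error 0.23, edgeR adjusted p = 0.933), where vehicle library 2 was again the lowest.

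Within groups the tumors differed in one pattern. Vehicle library 1 was at least 2-fold above vehicle library 2 for 16 of the 45 genes and in no case the reverse, whereas over all genes tested the split was 708 against 597. In YJ1206 tumors library 1 was at least 2-fold below library 2 for 11 of 42 genes and in no case above, with 515 below and 214 above over all genes. Both sets hold Col1a1, Col1a2, Col3a1, Col8a1, Col8a2, Col14a1, Fbn1 and Loxl1. Leukocyte markers summed to 163, 369 and 249 TPM in vehicle and 427, 462 and 454 TPM in YJ1206 tumors. Of the 8 tested 0 passed with edgeR, DESeq2 or limma, and 3 had an unadjusted p under 0.05 with edgeR. Macrophage markers summed to 265, 187 and 227 TPM and to 256, 338 and 299 TPM, with 3 of 9 higher. Endothelial markers summed to 93.8 to 97.8 TPM and 105 to 113 TPM, with 1 of 12 higher, beside 11.9% higher of all genes tested. None of these markers was listed at 0 in all libraries of a tumor group, and their part in the result was not tested.

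**Figure D3:**
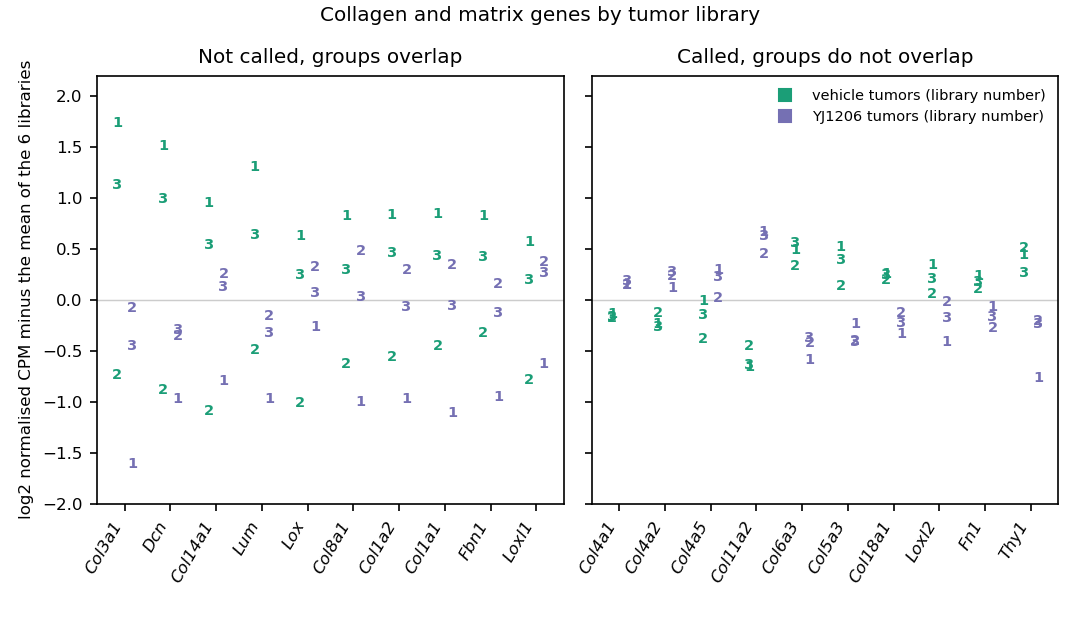
Normalised CPM of each tumor library (log2, relative to the mean of the 6 libraries) for 10 genes that did not pass and whose groups overlap (left) and for 10 genes that passed (right), picked after their values were seen. Each digit is the number of a library, green for vehicle and purple for YJ1206. On the left vehicle library 2 and YJ1206 library 1 lie lowest of their groups with library 3 between except for Dcn in YJ1206 tumors, and on the right the groups separate within a narrower range.

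The effect of YJ1206 differed between tumors and cells for 10 of the 16 genes tested in both, by an interaction term over all 12 libraries. Among the 11307 genes tested in both, 59.7% passed, 25.8% with an estimate above 0 (the tumor effect lies above the cell effect) and 34.0% below, beside 62.5% of these 16, with 6 above and 4 below. Of all genes that passed in this fit, tested in both or not, 44.5% were above 0 with TMM and 61.5% with total-count scaling. Batch and treatment in the cells, and culture and host, cannot be told apart from this difference. With libraries 1 and 2 of the tumors only, the same 10 genes passed.

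Col4a5 differed most, at 2.71 (standard error 0.16, edgeR adjusted p = 3.65e-08) on the log2 scale, lower in cells and higher in tumors. Its tumor call alone was kept in 1 of the 6 fits that leave out a library. Col12a1 differed by 2.48 (standard error 0.35, edgeR adjusted p = 5.66e-05), Col11a2 by 1.39 (standard error 0.16, edgeR adjusted p = 1.19e-05), Sparc by 1.03 (standard error 0.14, edgeR adjusted p = 3.99e-05), Loxl2 by 1.00 (standard error 0.13, edgeR adjusted p = 3.61e-05) and Col5a1 by 0.91 (standard error 0.086, edgeR adjusted p = 1.78e-06). Below 0, Postn differed by -2.67 (standard error 0.45, edgeR adjusted p = 0.000292) and Col6a3 by -1.25 (standard error 0.25, edgeR adjusted p = 0.00105). In cells Postn had enough counts only with YJ1206, so only an increase was open there and a difference below 0 was favored. For the collagen IV pair the difference was -2.35 (standard error 0.098, edgeR adjusted p = 3.23e-09) in Col4a1 and -1.80 (standard error 0.12, edgeR adjusted p = 8.36e-08) in Col4a2, as both rose more in culture. Col6a3 did not pass on the log2(TPM + 0.1) scale (limma difference -1.47, adjusted p = 0.0837). Fn1 had effects of -0.34 in cells and -0.34 in tumors, a difference of -0.029 (standard error 0.07, edgeR adjusted p = 0.789) that became 0.19 with total-count scaling (edgeR adjusted p = 0.0467), so its sign depended on the scaling.

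**Figure D4:**
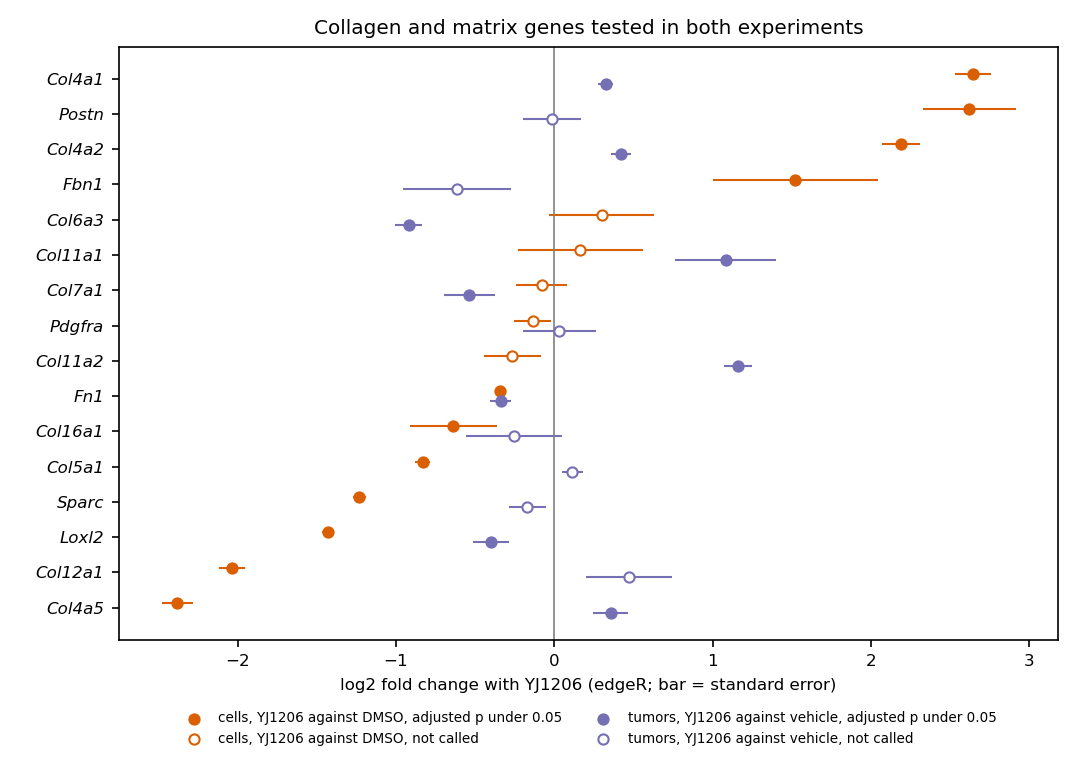
The log2 fold change with YJ1206 in cells (orange) and in tumors (purple) for the 16 genes tested in both experiments, with bars for the standard error and filled symbols for an adjusted p under 0.05 (edgeR). Col4a1, Postn and Col4a2 lie far to the right in cells and near 0 in tumors, Fn1 has nearly the same value in both, and Col4a5, Col12a1, Loxl2, Sparc and Col5a1 lie to the left in cells and nearer to 0 or past it in tumors.

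Genes that process, cut and bind collagen are read against the shares of all genes that passed, 76.1% in cells and 26.8% in tumors. Of 32 processing enzymes and chaperones, 11 of 22 tested rose and 9 fell in cells, and 6 of 31 rose and 2 fell in tumors. In cells P4ha2 and P3h1, which hydroxylate proline, rose by 1.04 and 1.00 on the log2 scale (edgeR adjusted p = 2.91e-06 and 1.06e-08). Loxl4 and Crtap, the latter a partner of P3h1, changed by -1.56 and -1.44 (edgeR adjusted p = 4.03e-22 and 1.42e-14). In tumors P4hb, a subunit of prolyl 4-hydroxylase, rose by 0.77 from 1100 ± 175 to 1882 ± 90.3 normalised CPM (SD, n = 3 libraries, edgeR adjusted p = 0.00369). Lowered in tumors were P4ha3 (-0.96, edgeR adjusted p = 0.0187) and Loxl3 (-0.66, edgeR adjusted p = 0.0395).

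Of 23 genes of collagen degradation, 3 of 7 tested rose and 3 fell in cells, and 5 of 20 rose and 2 fell in tumors. Ctsl, a lysosomal protease, rose by 0.27 in cells (edgeR adjusted p = 1.27e-07) and by 0.92 in tumors (edgeR adjusted p = 0.00865). The inhibitor Timp1 fell in both, by 1.06 in cells (edgeR adjusted p = 2.35e-15) and by 1.23 in tumors (edgeR adjusted p = 0.000629). Among 11 collagen receptors, 2 of 5 rose and 2 fell in cells and 3 of 11 rose and 1 fell in tumors. In cells Itgb1 changed by 0.21 and Ddr1, the epithelial collagen receptor kinase, by -0.40 (edgeR adjusted p = 3.38e-09 and 2.39e-08). In tumors Adgrg1 and Lair1, an inhibitory collagen receptor of leukocytes, changed by 0.97 and 0.65 (edgeR adjusted p = 0.00349 and 0.0108), and the integrin chain Itga1 by -0.51 (edgeR adjusted p = 0.0166).

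Of 27 genes of TGF-beta signaling, a pathway that induces collagen in fibroblasts, 6 of 23 tested rose and 10 fell in cells, and 4 of 26 rose and 1 fell in tumors. In cells Ltbp1 and Smad3 changed by -1.02 and -0.90 (edgeR adjusted p = 1.78e-20 and 8.49e-15), and Smurf1 and Smad4 by 0.60 and 0.56 (edgeR adjusted p = 1.35e-10 and 3.21e-13). In tumors Ltbp3, which stores latent TGF-beta in the matrix, and the target Pmepa1 changed by 0.67 and 0.57 (edgeR adjusted p = 0.0113 and 0.0309), and the ligand Tgfb1 by -0.40 (edgeR adjusted p = 0.0108). Of 38 other matrix genes, 7 of 18 rose and 8 fell in cells, and 9 of 38 rose and 6 fell in tumors. Spp1, which encodes osteopontin, rose from 130.0 ± 4.53 to 654 ± 11.9 normalised CPM in cells (SD, n = 3 libraries, edgeR adjusted p = 8.29e-29). Tnxb, which encodes tenascin-X, fell by 1.47 in cells and rose by 0.99 in tumors (edgeR adjusted p = 2.27e-25 and 0.00537). Pericyte and smooth muscle markers rose in 2 and fell in 2 of 12 tested in tumors, among them Tagln and Acta2, contractile proteins, by 1.27 and 0.77 (edgeR adjusted p = 0.0179 and 0.0468), and Des, the muscle intermediate filament, and Rgs5, a pericyte marker, by -4.23 and -0.63 (edgeR adjusted p = 0.00772 and 0.00854).

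The other 17 collagens were at low levels throughout. Their highest mean in any group was 3.23 TPM, for Col8a2 in YJ1206 tumors, and 3 of them (Col8a2, Col22a1 and Col9a3) reached 1 TPM in a group. In cells none had enough counts to be tested. In tumors 8 were tested and 0 passed with edgeR, 1 having an unadjusted p under 0.05. This was Col6a6, a collagen VI chain, with a log2 fold change of -2.09 (edgeR adjusted p = 0.0819), which passed with DESeq2 (adjusted p = 0.0247) but not with limma on TPM. The groups of Col6a6 overlapped, and only 2 vehicle libraries and 1 YJ1206 library reached the minimum count for the test. Genes of the set were long whether or not they passed. In cells the median span was 114 kb for those higher, 86.8 kb for those lower and 45.9 kb for those that did not pass, beside 21.6, 24.2 and 18.9 kb over all genes. In tumors it was 125, 72.9 and 51.4 kb, beside 21.4, 24.2 and 20.1 kb.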

How the data were processed

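RNA-seq of cultured Myc-CaP cells (6 libraries) and of Myc-CaP tumors (6 libraries) was used. The authors deposited estimated counts and TPM per gene for each experiment. The submitters' processing notes name kallisto and GRCm38 (mm10), and the annotation and the version are not given in the sources used here. All 57 genes were found in GENCODE vM21, which gave coordinates. Estimated counts were rounded and tested with edgeR 4.0.16 (filterByExpr, TMM, quasi-likelihood test, Benjamini-Hochberg adjustment over all genes tested, threshold 0.05) in R 4.3.3, within each experiment and, for the difference between experiments, over all 12 libraries. The scripts were tested on simulated data. Alternatives used DESeq2 1.42.0, limma 3.58.1 on log2(TPM + 1) or log2(TPM + 0.1), total-count scaling, no filter, a replicate block and fits without single libraries, and their effect is given at the end.

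The genes and lists were chosen with earlier results of these data known. Values per library were given for the 13 genes that are not collagens, the 17 collagens with a mean of at least 10 TPM in a group, and the other 3 of collagen IV. Another 7 collagens (Col5a3, Col7a1, Col10a1, Col11a1, Col16a1, Col20a1 and Col23a1) and Col6a6, Col8a2 and Nt5dc1 were named after their values were seen. In other lists the genes named were among the largest changes with at least 5 CPM. A count of 3 was taken as the floor, which covers counting error only. Protein sequences were not analysed here.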

Additional observations from a re-analysis of the deposited data

Results flagged for a closer look

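A test of the difference itself set 10 genes apart, whose response to YJ1206 was unequal in tumors and in cells by the interaction term (edgeR over 12 libraries, tumor log2 fold change minus cell log2 fold change). Above 0, Col4a5 differed by 2.71, Col12a1 by 2.48, Col11a2 by 1.39, Sparc by 1.03, Loxl2 by 1.00 and Col5a1 by 0.91. Below 0, Postn differed by -2.67, Col4a1 by -2.35, Col4a2 by -1.80 and Col6a3 by -1.25. For Postn this direction was favored in advance, since in cells it had enough counts only with YJ1206. In Col4a5 the response was below 0 in cells and above 0 in tumors, and both passed. Its tumor call lay near the threshold (edgeR adjusted p = 0.0496) and was kept in 1 of the 6 fits that leave out a library. With tumor libraries 1 and 2 only it was lost (edgeR adjusted p = 0.343). With 3 libraries per group, no formal test for an outlying library was made.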

How the results depend on the processing

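In cells the counts were 5 higher and 7 lower, and every alternative stayed within 1.5 times of them. In tumors, 6 genes were higher and 8 lower. The higher count was 2 with limma on log2(TPM + 1), 2 on log2(TPM + 0.1) and 2 with all genes above 0, and 0 with tumor libraries 1 and 2 only. The lower count was 4 with limma on all genes above 0 and 0 with tumor libraries 1 and 2 only. Leaving out 1 tumor library gave 3 to 6 higher and 4 to 18 lower, the 18 without vehicle library 2. Of all genes called in cells 29.3% were higher with limma on log2(TPM + 1).

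Same-numbered libraries did not deviate together (r from -0.0289 to 0.0102 in cells and from -0.0142 to 0.000765 in tumors), so no pairing by number was seen. These values cannot show whether same-numbered samples were handled together. With a replicate block the counts were 5 and 7 in cells and 5 and 6 in tumors, and all 10 differences between experiments kept their calls.

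Estimates that changed sign belonged to genes not called. In cells Col11a1 was at -0.019 with total counts and -0.026 to 0.43 over fits without 1 library, and Pdgfra at 0.027, 0.020 and 0.027 in the 3 limma fits in the order above. In tumors Col15a1 was at -0.094, -0.11 and -0.094 and Lox at 0.00071, 0.0095 and 0.00071 in the limma fits. With the replicate block Lox was at 0.073 and Loxl1 at 0.017, and with tumor libraries 1 and 2 only Lox was at 0.030. Without 1 library the ranges were -0.83 to 0.019 for Col14a1, -0.17 to 0.35 for Col15a1, -0.54 to 0.012 for Col16a1, -0.67 to 0.072 for Col8a1, -0.39 to 0.33 for Lox, -0.33 to 0.31 for Loxl1, -0.22 to 0.26 for Pdgfra, -0.14 to 0.044 for Pdgfrb and -0.21 to 0.18 for Postn. For the difference between experiments, Col16a1 was at -0.29, -0.047 and -0.29 in the limma fits. Fn1 was at 0.19 with total counts, at 0.21 in each limma fit and at -0.076 to 0.013 without 1 library, and Pdgfra at -0.12 to 0.37 without 1 library. The causes were not tested. Of single-gene values over the other alternatives, 100 of 111 in cells, 245 of 292 in tumors and 119 of 128 for the difference kept direction and call. Depth limits most collagens in culture: without the filter on low counts 38 of the 57 genes were tested in cells, and 12 passed.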
